A study of Mus musculus with 6 samples.

Results

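Cyclic nucleotide phosphodiesterases and the cyclic GMP-dependent protein kinase gene Prkg1 were followed through an eCLIP comparison of the RNA-binding protein ZFP36L2 with a control antibody. The 9 genes were Pde5a, Prkg1, Pde4d, Pde4a, Pde4b, Pde3a, Pde7a, Pde8a and Pde10a, chosen by name with earlier results of these data known. Every peak of the authors' deposited table that carried one of these names was taken. This gave 46 of the 55449 peaks, in 7 of the 9 genes. Pde7a and Pde10a had no peak and were not tested. The assay, eCLIP, crosslinks proteins to RNA in living cells with ultraviolet light, isolates 1 protein with an antibody and sequences the RNA fragments that come with it. The cells were MLTC-1, an established mouse Leydig cell tumour line, untreated apart from the crosslinking, and there were 6 libraries in 4 groups. Abcam antibody ab70775 against ZFP36L2 gave 2 immunoprecipitation libraries, rabbit IgG (ab313801) gave 1, and each had an input library of RNA bound by all proteins. The table holds 1 log2 fold change of ZFP36L2 over IgG, 1 p-value and 1 adjusted p-value per peak, and no values of single libraries. The depth behind a peak is therefore unknown, and no spread between libraries can be shown. With 1 IgG library, a difference between the antibodies and a difference between these libraries cannot be told apart.

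Phosphodiesterases end cyclic nucleotide signals by hydrolysing cyclic AMP or cyclic GMP. PDE5A is specific for cyclic GMP and is the target of sildenafil, the PDE4 and PDE8 enzymes are specific for cyclic AMP, and PDE3A binds both and is inhibited by cyclic GMP. Prkg1 encodes the kinase that cyclic GMP activates. In Leydig cells cyclic AMP carries the signal of luteinizing hormone that starts steroid synthesis, and PDE8 enzymes are known to restrain it. ZFP36L2 belongs to a family of zinc finger proteins that bind AU-rich elements, often in 3′ UTRs, and speed the decay of the bound mRNA.

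Of the 46 peaks, 1 lay in a stretch whose reference sequence was at hand, the window upstream of the RefSeq start of Pde4d. It is shown because Pde4d is one of the genes with a depleted site, although this peak was not itself called. The window is chr13:108653927-108654176 on the plus strand of GRCm38.p6 (RefSeq), the same build as the mm10 of the table, written 5′ to 3′ with the 61 bases of the peak in capitals.
Pde4d: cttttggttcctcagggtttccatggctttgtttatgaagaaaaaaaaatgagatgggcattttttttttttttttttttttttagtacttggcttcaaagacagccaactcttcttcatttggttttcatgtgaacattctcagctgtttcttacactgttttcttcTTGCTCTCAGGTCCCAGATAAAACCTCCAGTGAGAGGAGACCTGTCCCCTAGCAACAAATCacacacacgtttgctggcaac
The peak ends 21 bases before the RefSeq start and has 50.8% G and C. The window holds long runs of T and of A outside the peak. ATTTA, the core of an AU-rich element, was searched on the transcript strand and was in neither the window nor the peak, and 18.5% of all 32851 windows of this length upstream of RefSeq starts hold it. With 25 bases of flank on each side, ATTTA was found in 2 of the 162 peaks of the table that fit inside a promoter window, and TATTTAT, which contains it, in 0.

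Depleted peaks, lower for ZFP36L2 than for IgG by the deposited fold change, were those whose adjusted p was under 0.05 and whose log2 fold change was -1 or less. How that fold change was scaled is not known, and its median over all peaks was -1.06. A value below 0 therefore does not by itself show that less RNA was recovered. Enriched peaks met the same adjusted p at 1 or more. Pde5a, Prkg1 and Pde4d each had depleted peaks, 6 in all, and no peak of the 9 genes was enriched. The depleted share was 13% of the 46 peaks, where 5.44% of all peaks were depleted, and the enriched share was 0, where 2.22% of all peaks were enriched. By gene, 3 of 7 had a depleted peak, against 17.3% of all 10818 named genes and 16.7% of the 7268 genes with 2 to 10 peaks, the range the 7 genes span. None of the 7 had an enriched peak, against 5.04% of all genes. Because the genes were chosen with earlier results of these data known, these shares cannot be read as those of an unbiased set. At an unadjusted p under 0.05 in the authors' deposited table, 10 of the 46 peaks were lower (21.7%) and 0 were higher, where 11.2% of all peaks were lower and 2.94% higher. The sources used here do not say how these p-values were computed.

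The 6 depleted peaks formed 3 sites. In each of these 3 genes the depleted pair touched end to end, so the pairs are not independent observations. Counted as sites of touching peaks, 3 of 34 were depleted (8.82%), against 5.85% of the 40663 sites of the whole table, and 0 were enriched, against 2.50%. The 3 sites spanned 64, 63 and 65 nucleotides in Pde5a, Prkg1 and Pde4d. Such pairs were common in the table, since 41.9% of all 3019 depleted peaks shared a site with another depleted peak, and the sites with several depleted peaks had a median span of 61 nucleotides.

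**Figure D1:**
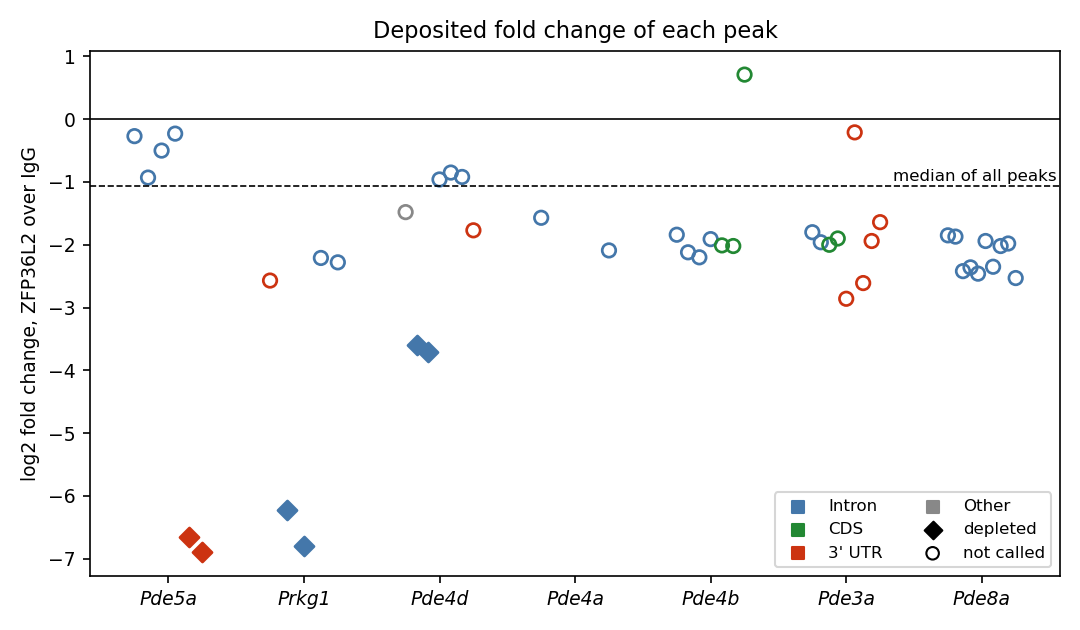
Each point is 1 peak, with the deposited log2 fold change of ZFP36L2 over IgG on the vertical axis, genes along the horizontal axis and the transcript region as colour; filled diamonds are depleted and open circles not called, and the dashed line is the median of all peaks (-1.06). The 6 depleted peaks, in Pde5a, Prkg1 and Pde4d, lie at -3.60 or lower, and 1 peak, in Pde4b, lies above 0.

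Pde5a held the best-supported depleted site of the whole table, and it lay in the 3′ UTR. The site is at 122856115 to 122856178 on the plus strand of chromosome 3 (mm10), 3.24 kb before the RefSeq end of the gene. The authors' deposited table gave its first peak, at 122856115 to 122856151, a log2 fold change of -6.65 (adjusted p = 1.7e-30), the smallest adjusted p among all 3019 depleted peaks. Its second peak, at 122856152 to 122856178, had -6.89 in the authors' deposited table (adjusted p = 3.4e-29), the lowest value of the 7537 peaks in 3′ UTRs and the second smallest adjusted p of the depleted peaks. The other 4 peaks of Pde5a were intronic and had -0.27, -0.93, -0.50 and -0.23 in the authors' deposited table, each with an adjusted p of 1. All 4 lay above the median of all peaks, and the 2 peaks of the 3′ UTR site lay far below it. The range within the gene was 6.66 on the log2 scale, and 1.47% of the 8457 genes with at least 2 peaks had a range as wide. Of the 4 intronic peaks, 3 fall inside Gm34577, a long noncoding RNA gene on the opposite strand.

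Prkg1 also had a strongly depleted site, in an intron near the middle of a gene of 1201 kb. The site is at 31083895 to 31083957 on the minus strand of chromosome 19, 681 kb from the RefSeq start. Its peaks had log2 fold changes of -6.22 (adjusted p = 4.0e-19) and -6.79 (adjusted p = 2.6e-23) in the authors' deposited table. They ranked 14 and 3 among all peaks counted from the lowest fold change. Only 17 peaks of the table reached -6 or less, and 4 of those were the pairs of Pde5a and Prkg1.

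The Prkg1 site lies inside the span of another gene. Cstf2t, a protein-coding gene that encodes a testis-expressed variant of a polyadenylation factor, occupies 31082841 to 31086592 of chromosome 19 on the plus strand, within the Prkg1 intron. The depleted peaks are on the minus strand, antisense to Cstf2t, and the table gives them to Prkg1 alone. The table had 0 peaks named Cstf2t and 0 plus-strand peaks within its span. Among all depleted intronic peaks, 5.09% lay inside a RefSeq gene of the opposite strand with a known strand, and among all intronic peaks 4.19% did. A call that leaves out peaks inside another RefSeq gene, chosen after the values were seen, kept 4 depleted peaks in 2 genes, those of Pde5a and Pde4d.

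The other Prkg1 peaks were not called. An intronic pair 2.12 and 2.09 kb from the RefSeq start had -2.21 and -2.28 in the authors' deposited table, with adjusted p of 0.91 and 0.81. The single 3′ UTR peak, 0.441 kb from the gene's end, had -2.57 in the authors' deposited table (adjusted p = 0.35). In contrast to Pde5a, the uncalled peaks of Prkg1 all lay below the median of all peaks.

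**Figure D2:**
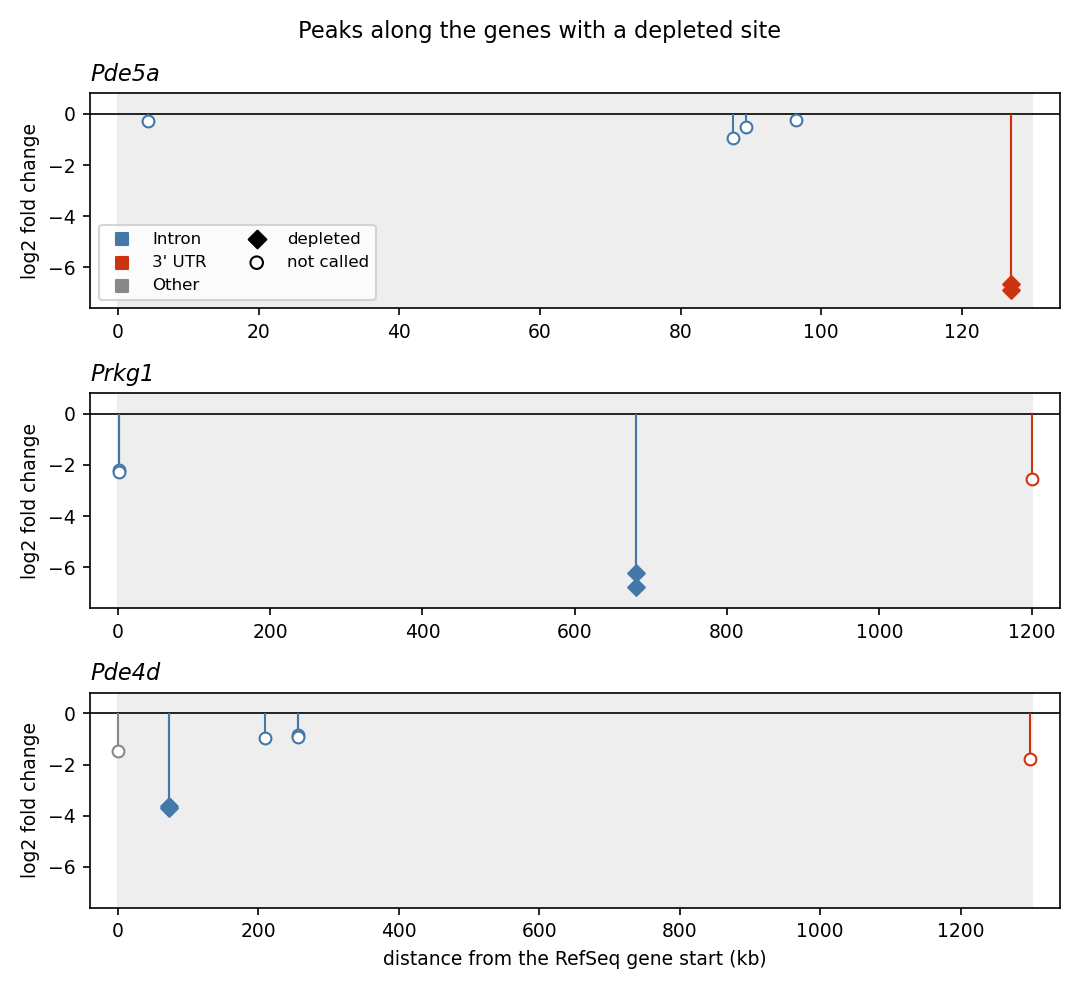
Deposited log2 fold change of each peak against its distance in kb from the RefSeq gene start for Pde5a, Prkg1 and Pde4d, with the gene's extent shaded; filled diamonds are depleted, open circles not called, and colours give the transcript region. Each gene has 1 depleted site, at 127 kb in the 3′ UTR of Pde5a, at 681 kb in Prkg1 and at 72.5 kb in Pde4d, the last 2 in introns.

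Pde4d, which encodes a cyclic AMP-specific enzyme with many promoters and splice forms, had a less negative depleted site in an intron. It is at 108726642 to 108726706 on the plus strand of chromosome 13, 72.5 kb into a gene of 1302 kb. The authors' deposited table gave its peaks log2 fold changes of -3.60 (adjusted p = 0.005) and -3.70 (adjusted p = 0.0028). They held places 1562 and 1350 among the depleted peaks by adjusted p, in the middle of that list, whereas the Pde5a and Prkg1 peaks were all among the first 17. Further into the gene, intronic peaks 210 kb and 256 kb from the start had -0.96, -0.85 and -0.92 in the authors' deposited table, each with an adjusted p of 1. The peak upstream of the start, whose sequence is printed above, had -1.48, and the 3′ UTR peak had -1.77, in the authors' deposited table. Neither was called, and the Pde4d 3′ UTR value lay well above that of Pde5a.

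The other cyclic AMP-specific PDE4 genes had no called peak. Pde4a had 1 intronic site of touching peaks, with -1.57 and -2.09 in the authors' deposited table and an adjusted p of 1 for both. Pde4b had 7 peaks, of which 4 intronic ones ran from -2.20 to -1.84 in the authors' deposited table. Its 3 coding peaks had -2.01, -2.02 and 0.71 in the authors' deposited table, and the last, at 102597740 to 102597815 on chromosome 4, was the only one of the 46 peaks above 0. The smallest adjusted p of Pde4b was 0.79, at an intronic peak opposite to the long noncoding RNA gene Gm52668.

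Pde3a, the enzyme that hydrolyses cyclic AMP under the control of cyclic GMP, was the member with most 3′ UTR peaks, 5 of its 9. In order along the transcript they had -2.86, -0.21, -2.61, -1.94 and -1.64 in the authors' deposited table. The lowest of them, at 141499747 to 141499814 on chromosome 6, had an adjusted p of 0.17, the smallest of any uncalled peak here. Both coding peaks (-2.00 and -1.90) and both intronic ones (-1.80 and -1.96) of the authors' deposited table stood near the middle of this range. The 3′ UTR of Pde3a had no called peak, with values between -2.86 and -0.21 where the Pde5a site had -6.65 and -6.89.

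Pde8a, a high-affinity cyclic AMP phosphodiesterase, had 10 peaks, the most of the 7 genes, all intronic and none called. They ran from -2.53 to -1.85 in the authors' deposited table, where their median was -2.19, and all lay below the median of all peaks. The smallest adjusted p was 0.18, at 81293361 to 81293422 on chromosome 7. Its range of 0.68 was narrow beside the median range of 1.77 among genes with at least 2 peaks. At an unadjusted p under 0.05 in the authors' deposited table, 2 Pde8a peaks and 2 Pde3a peaks were lower, and none of these passed the adjustment.

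**Figure D3:**
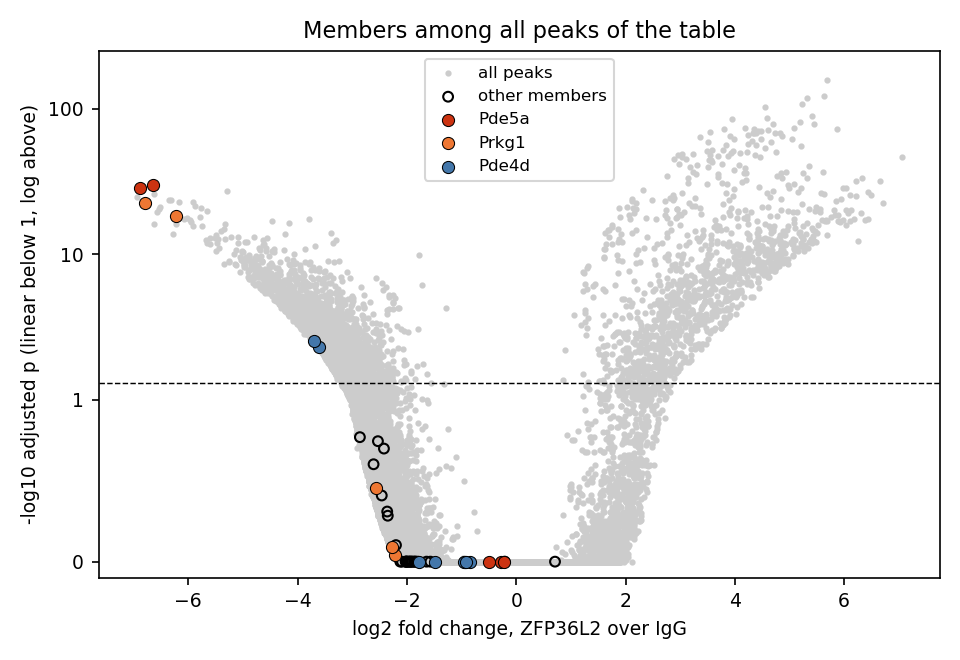
Deposited log2 fold change of ZFP36L2 over IgG (horizontal axis) against -log10 of the adjusted p (vertical axis, linear below 1 and logarithmic above) for all 55449 peaks in grey, with Pde5a, Prkg1 and Pde4d coloured and the other members as open circles; the dashed line marks an adjusted p of 0.05. The Pde5a and Prkg1 pairs sit at the far upper left, the Pde4d pair lies within the mass of depleted peaks, and the remaining 40 peaks lie under the line.

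As a group, the 46 peaks sat low on the fold-change scale. Their median log2 fold change was -1.99, and that of the 40 uncalled peaks was -1.94, whereas the median over every peak of the authors' deposited table was -1.06. Below 0 lay 45 of the 46 (97.8%), against 76.2% of all peaks, and 37 of the 46 (80.4%) lay below the median of all peaks. Most of these low values had no support of their own, as 29 of the 46 had an adjusted p of 1. The share among all peaks was 74.6%.

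Introns held 31 of the 46 peaks (67.4%, against 42.3% of all peaks), 3′ UTRs held 9 (19.6% against 13.6%), coding sequence held 5 (10.9% against 37%), and 1 was of the class other. Introns were also where more peaks of the whole table were depleted, 7.04% against 3.74% in coding sequence and 4.83% in 3′ UTRs. Within introns the median log2 fold change was -1.98 for the members and -1.31 for all peaks of the authors' deposited table. In coding sequence the medians were -2.00 and -0.72, and in 3′ UTRs -2.57 and -1.08, so the median of the members' peaks was lower in each of these 3 regions. The 5 coding peaks came from only 2 genes. The 9 peaks in 3′ UTRs came from 4 genes, with 5 of them in Pde3a. These peaks share genes, and no test was made over them.

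The same question was asked of other genes that make, break down or answer to cyclic nucleotides. In 5 lists, 35 of 72 genes had a peak, of which 7 (20%) had a depleted peak and 4 (11.4%) an enriched one, where all genes gave 17.3% and 5.04%. These genes had 10.7 peaks each on average, against 5.2 over all genes, and by peak the shares were not above those of the table: of 373 peaks, 5.09% were depleted and 1.34% enriched, against 5.44% and 2.22% of all peaks. Among the remaining phosphodiesterases, 8 of 16 genes had peaks, 3 had a depleted peak and 0 an enriched one. Their 46 peaks had a median of -1.77 by the authors' deposited table, and 4 of them (8.7%) were depleted. Pde3b, the sister gene of Pde3a, was depleted in a touching coding pair (-3.60 and -3.29, adjusted p = 0.0051 and 0.028), per the authors' deposited table. Pde1c, a calcium-calmodulin-activated enzyme, was depleted in its 3′ UTR (-3.17, adjusted p = 0.023), and Pde8b, the sister gene of Pde8a, in an intron (-3.03, adjusted p = 0.04), per the authors' deposited table. Each of these was smaller in size than the Pde5a and Prkg1 values.

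On the synthesis side, 10 of 24 cyclases and nitric oxide synthases had peaks, and in the authors' deposited table their median was -1.23. Of their 78 peaks, 2 were depleted (2.56%) and 0 enriched, where 5.44% and 2.22% of all peaks were. By gene, 1 of the 10 had a depleted peak, where 17.3% of all genes did. It was Gucy1b2, a subunit gene of soluble guanylyl cyclase, which makes cyclic GMP. A touching intronic pair at 62405291 to 62405352 on chromosome 14 had -2.79 (adjusted p = 4.7e-05) and -4.79 (adjusted p = 7.4e-14) in the authors' deposited table. No adenylyl cyclase had a called peak in the 5 tested genes Adcy3, Adcy5, Adcy6, Adcy7 and Adcy9.

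Of the 117 peaks in 6 cyclic GMP effector genes, 10 were depleted (8.55%) and 3 enriched (2.56%), against 5.44% and 2.22% of all peaks. The depleted peaks came from 2 of the 6 genes, Kcnma1 and Itpr1, where 17.3% of all genes had a depleted peak. The enriched ones also came from 2 of the 6, Kcnma1 and Pln, where 5.04% of all genes had one. Kcnma1, the large-conductance potassium channel that the Prkg1 kinase regulates, had 2 enriched and 7 depleted peaks among 58, from -5.00 to 4.90 in the authors' deposited table. Pln, the phospholamban gene, had an enriched 3′ UTR peak (2.67, adjusted p = 8.1e-04) in the authors' deposited table. Itpr1, an inositol trisphosphate receptor, had 3 depleted peaks among 28, down to -2.96 in the authors' deposited table. The 4 tested cyclic AMP effectors outside protein kinase A (Hcn2, Popdc2, Popdc3 and Rapgef4) had 26 peaks, none of them called. With 5.44% of all peaks depleted and 2.22% enriched, a list this small could have no called peak without differing from the table. The list of partners and export had 3 depleted (2.83%) and 2 enriched (1.89%) of 106 peaks, both shares below those of all peaks. Pde4dip, which encodes the PDE4-binding protein myomegalin, was enriched in 1 of 65 peaks (2.41, adjusted p = 0.02), Rack1, a PDE4D-binding scaffold, in 1 of 7 (1.76, adjusted p = 0.026), and Abcc4, a cyclic nucleotide exporter, was depleted in 3 of 17, down to -3.33, in the authors' deposited table.

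**Figure D4:**
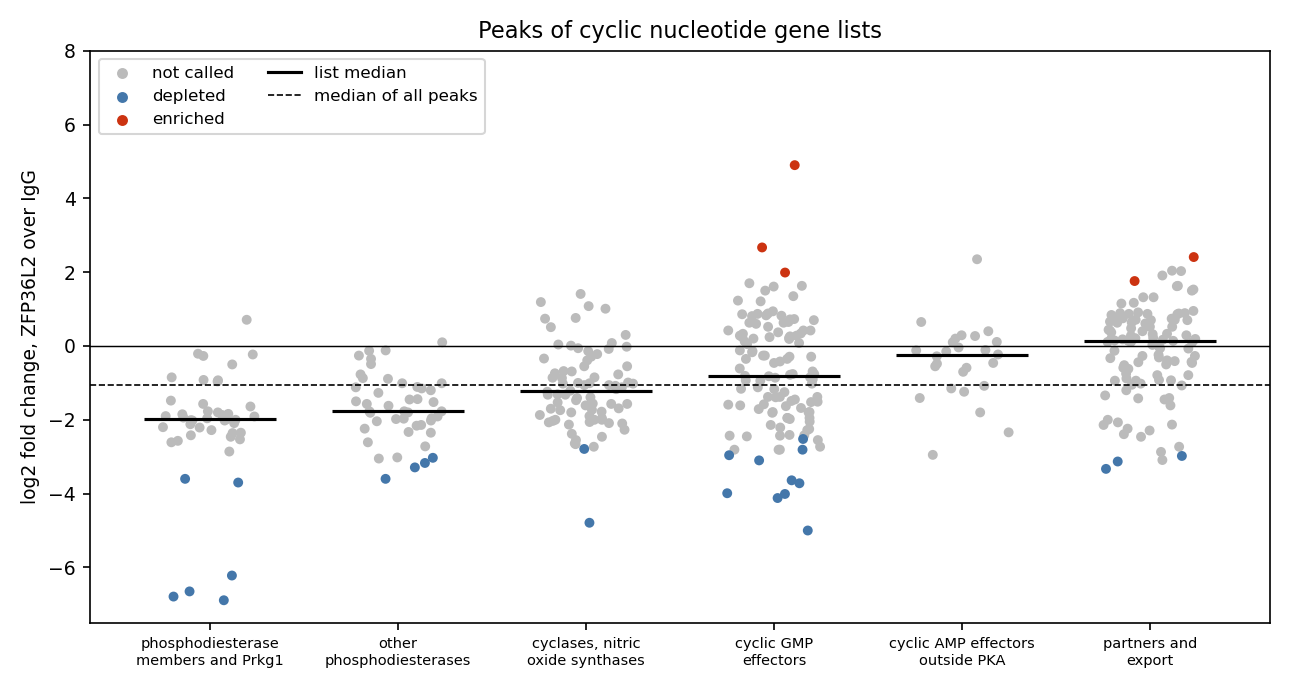
Deposited log2 fold change of every peak, 1 point each, for the 46 peaks of the phosphodiesterase members and Prkg1 and for 5 lists of related genes; blue is depleted, red enriched, grey not called, the solid bars are list medians and the dashed line the median of all peaks. The member and other phosphodiesterase groups have the lowest medians (-1.99 and -1.77), and enriched peaks occur only in the lists of cyclic GMP effectors and of partners and export.

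Marker genes of the labelled cell type and of others were looked up for peaks. A peak shows that RNA of the gene was recovered and not at what level. Of 12 Leydig cell markers 8 had peaks, Cyp11a1, Star and Lhcgr among them, while Cyp17a1, Insl3, Hsd3b1 and Hsd17b3 had none. Their 102 peaks were enriched in 35 cases (34.3%) and depleted in 3 (2.94%), against 2.22% and 5.44% of all peaks. All 35 enriched peaks came from 3 of the 8 genes, Cyp11a1, Lhcgr and Prlr. The depleted peaks came from 3 others, namely Pdgfra, Nr2f2 and Gata4. Peaks of a gene are not independent, so the peak share does not describe the Leydig markers as a set. Peaks were also found for 5 of 6 smooth muscle markers (41 peaks, 0 enriched and 1, or 2.44%, depleted) and for 8 of 8 cardiac muscle markers (783 peaks, 32, or 4.09%, enriched and 2, or 0.255%, depleted), both tissues in which Pde5a, Prkg1 or Pde3a are known to be expressed. Their part in the results above was not tested. The enriched cardiac peaks came from 4 of the 8 genes, Myh6, Ryr2, Tnnt2 and Ttn. The peak share therefore does not describe the cardiac markers as a set. Of the Sertoli, germ cell and macrophage markers, 2 of 7, 1 of 5 and 5 of 5 had peaks, of which 2 of 7, 0 of 2 and 2 of 29 were enriched and 0, 0 and 1 depleted. All listed cardiac and macrophage markers thus had peaks and not all Leydig ones did. Having a peak therefore does not set the labelled cell type apart.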

How the data were processed

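The libraries were eCLIP libraries of MLTC-1 cells. The submitters' processing notes name DESeq2 1.34.0, STAR 2.7.7a, cutadapt 3.2, UMI-tools 1.1.1 and build mm10, with no role or order. Peak calling, pooling of libraries and any use of the inputs in the fold change were not given in the sources used here. For each peak the authors deposited a log2 fold change, with the direction taken from the table's name. Each p-value and adjusted p-value was deposited as its −log10 and converted back here, with 0 read as 1.

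Calls used an adjusted p under 0.05 over all 55449 peaks and an absolute log2 fold change of 1 or more. No test was added, and medians and counts were computed with pandas 2.3.3. Touching or overlapping peaks of a gene on a strand formed a site. Peaks were placed on RefSeq genes of GRCm38.p6. Strands of overlapping genes came from RefSeq promoter entries, which cover 27025 of 49997 genes. The call and site rules were tested on simulated data. All 9 members are named whatever their values, and of each list up to 4 genes by adjusted p. The members and lists were chosen with earlier results of these data known. Nothing in the labels says that libraries came from separate cultures, so any spread behind the p-values may be technical. Motifs could be searched in promoter windows only, since no genome sequence was used here.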

Additional observations from a re-analysis of the deposited data

How the results depend on the processing

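The 6 depleted and 0 enriched peaks, and the 3 genes with a depleted peak, had the same counts under several settings. These were an adjusted p under 0.01, an absolute log2 fold change of 2 or more, and centring on the median of all peaks with the adjusted p kept. Some other settings could not have changed the member counts and are no check of them. None of the 46 peaks had several gene names, so leaving such peaks out removed nothing. Leaving out Pde8a removed no called peak. Taking 1 peak per gene by the smallest adjusted p kept a depleted peak in each gene that had one. Counting touching peaks as 1 site did change a count, giving 3 depleted sites in place of 6 peaks. Among the pathway lists, the genes with an enriched peak went from 4 to 2 at an adjusted p under 0.01, and those with a depleted peak from 7 to 5. No paired analysis was possible because the table holds no values of single libraries, and leaving out a library was not possible for the same reason. The motif counts in the Pde4d peak were 0 with and without flanks. The printed window holds only 21 bases after the peak, fewer than the 25 of a full flank. The count with full flanks therefore cannot be repeated from the printed sequence alone. The unknown depth and the unknown way the p-values were computed limit what uncalled peaks show. A log2 fold change near -2 had an adjusted p of 1 in many of them. A difference there was not called and is not shown to be absent.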
